A study of Mus musculus with 9 samples.

Results

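Bone marrow of the NZB mouse was compared with bone marrow of the NZW mouse by single cell RNA sequencing. The 6 libraries, 3 per strain, each held the cells of both femurs of 1 female mouse aged 9 to 10 weeks, and a further 3 mice of the NZBWF1 strain, the cross of the parents, were sequenced in the same series. No treatment, transgene, or deletion is named for any group, so strain is the only difference that the labels give. A barcode was kept with at least 1000 UMIs (unique molecular identifiers, each standing for 1 captured RNA molecule), at least 500 genes, and at most 10% mitochondrial UMIs. These limits kept 25249 barcodes, 10847 of NZB and 14402 of NZW, of the 39051 kept in the whole series. The NZB mice gave 2455, 5108, and 3284 barcodes, and the NZW mice 4309, 5143, and 4950. Every test was run over mice, with n = 3 per strain, and all fold changes are NZB against NZW.

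The NZB strain is known for an early autoimmune hemolytic anemia, whereas the NZW strain stays close to healthy and gives lupus nephritis when it is crossed with NZB. The adult marrow makes red cells, platelets, granulocytes, monocytes, and B lymphocytes from shared stem cells. B-lineage cells pass there from pro-B cells, which recombine the immunoglobulin genes, through pre-B cells, which carry a surrogate light chain, to mature B cells, while antibody-secreting plasma cells return to it later. Plasmacytoid dendritic cells also develop in marrow and are known as the main makers of type I interferon, a cytokine of lupus. The inbred strains differ across the genome, including at the major histocompatibility complex (MHC), and reads were counted against the mm10 reference, which comes from another strain, C57BL/6J.

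The kept barcodes of a mouse held 8738514 to 16343916 UMIs. Median UMIs per cell were 2475, 2536.5, and 2410 in NZB and 2314, 2272, and 2227.5 in NZW, so every NZB library was slightly deeper per cell. Median mitochondrial percent was 3.69, 3.97, and 2.95 in NZB and 4.47, 4.72, and 4.22 in NZW, lower in every NZB mouse. Free RNA, read from barcodes too small to be cells, came to 0.587% to 1.17% of a median cell. The NZB and NZW libraries shared 39 of 25184 barcode sequences (0.155%). The part of depth and mitochondrial percent in the results was not tested. Removal of likely doublets left 23696 cells, which were clustered and assigned to 15 classes by marker genes. Class names end in "-like" because RNA markers alone assigned them.

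The composition of the marrow differed between the parents in 3 of 16 groups of cells, which are the 15 classes and the cells of unnamed clusters (18.8%). Plasmacytoid dendritic-like cells made up 14.2%, 12.5%, and 10.3% of the cells in the NZB mice and 2.91%, 3.67%, and 3.13% in the NZW mice. The lowest NZB mouse was above the highest NZW mouse, and the means of 12.3% ± 1.95 and 3.24% ± 0.391 (SD, n = 3 each) stood 3.8-fold apart (log2 ratio 1.92 ± 0.29 SE, adjusted p = 0.000507). Pro-B and pre-B-like cells were the mirror of this, with 3.39%, 4.17%, and 4.78% in NZB and 19.3%, 15.6%, and 15.2% in NZW. Their share was 4.06-fold lower in NZB (log2 ratio -2.02 ± 0.29 SE, adjusted p = 0.000507). Plasma-like cells, the antibody-secreting cells, took 0.933%, 1.03%, and 1.44% in NZB against 0.0247%, 0.188%, and 0.239% in NZW, 7.53-fold more on average (log2 ratio 2.86 ± 0.61 SE, adjusted p = 0.0055). These rest on 22, 49, and 45 cells in NZB and 1, 9, and 11 cells in NZW, and when cells were instead called by a marker score the log2 ratio of plasma-like cells turned to -0.68 (adjusted p = 0.0843). Adjusted p values are from the edgeR quasi-likelihood test throughout unless another tool is named. For a single value, an exact permutation test over 3 against 3 mice cannot give a two-sided p under 0.1.

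**Figure D1:**
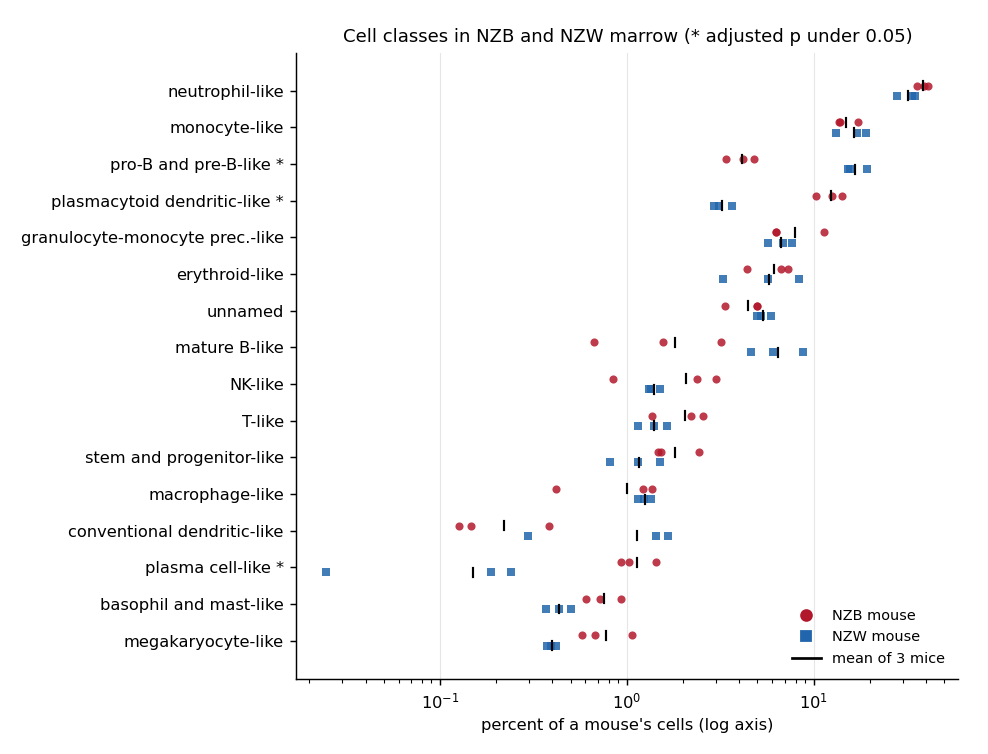
Share of each cell class among the cells of a mouse after doublet removal, in percent on a log axis, with 1 point per mouse (red circles NZB, blue squares NZW) and a black bar at the mean of 3 mice. Plasmacytoid dendritic-like and plasma-like cells lie to the right in NZB and pro-B and pre-B-like cells to the left, whereas neutrophil-like and erythroid-like shares lie close together.

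The plasmacytoid dendritic share was also described by cluster. Clusters with the kallikreins Klk1 or Klk1b27 among their 10 leading genes took 8.82%, 8.5%, and 6.8% of NZB cells against 0.889%, 1.09%, and 0.696% of NZW cells. They made up 66.1% of the class in NZB and 27.4% in NZW, and these genes are themselves far higher in NZB cells of the class, as described below. Picking clusters by these genes therefore favored clusters rich in NZB cells, so the split is no separate evidence. The remaining plasmacytoid dendritic-like clusters averaged 4.25% ± 0.974 and 2.35% ± 0.291, and for them alone the log2 ratio was 0.85 (adjusted p = 0.0545). With 2000 UMIs and 1000 genes required of a barcode, the log2 ratio of the whole class was 1.10 (adjusted p = 0.107), so the call holds for the limits stated above and not for stricter ones.

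All clusters of the pro-B and pre-B-like class were smaller in NZB on average. Cells led by Dnajc7 and Arl5c averaged 0.554% in NZB and 4.8% in NZW, those led by Myl4 and Bach2 1.66% and 6.0%, those led by Igll1 and Nrgn 0.758% and 3.19%, those led by Vpreb1 and Dntt with Lef1 1.12% and 2.67%, and the smallest cluster 0.0177% and 0.0307%. Mature B-like cells took 3.18%, 0.67%, and 1.57% in NZB and 8.79%, 4.59%, and 6.02% in NZW. The mice did not overlap, but the ratio missed the threshold (log2 -1.86 ± 0.65 SE, adjusted p = 0.0648). It passed with the replicate number as a block (-2.05, adjusted p = 5.76e-09) and without NZB mouse 1 (-2.54, adjusted p = 0.0206). Conventional dendritic-like cells, at 0.127%, 0.147%, and 0.385% in NZB and 0.296%, 1.65%, and 1.44% in NZW, overlapped in 1 mouse of each strain and behaved alike in the tests (log2 -2.36 ± 0.86 SE, adjusted p = 0.0648, with the block -2.45 and 7.89e-07, without NZW mouse 1 -2.8 and 0.0187).

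The other classes gave no call. Neutrophil-like cells, the largest class, averaged 38.6% ± 2.77 in NZB and 32.1% ± 3.61 in NZW (log2 0.26 ± 0.24 SE, adjusted p = 0.466). Monocyte-like cells averaged 14.9% ± 2.03 and 16.4% ± 3.01, and erythroid-like cells 6.12% ± 1.51 and 5.77% ± 2.51. Red cells had been lysed before loading, which bears on the erythroid share in both strains. Basophil and mast-like cells averaged 0.753% and 0.435% (log2 0.77 ± 0.29 SE, adjusted p = 0.0648), and NK-like cells 2.07% and 1.39%. Without NZB mouse 2, which held the smallest NK-like share, both passed (log2 0.92 and 0.95, adjusted p = 0.0407 each). Cells of unnamed clusters averaged 4.44% and 5.36%, and those that scored highest for pro-B and pre-B cells averaged 0.501% and 2.72%, and those that scored highest for mature B cells 1.53% and 1.52%.

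Inside a class the clusters could be split very unequally between the strains, and comparisons within a class hold that mixture. Monocyte-like cells led by Fn1, Ccr2, and S100a4 averaged 1.5% of NZB cells and 8.39% of NZW cells. Those led by Vcan and Ms4a6d averaged 3.3% and 0.0297%, and those led by the interferon-inducible genes Cxcl10, Slfn5, and Ifit3 averaged 0.0887% and 1.13%. The cluster led by F13a1, Klf4, and Ms4a6c averaged 8.18% and 5.4% and had the most cells in its smallest mouse. For 7 classes the gene tests were therefore repeated in the 1 cluster whose smallest mouse held the most cells, a choice made after the data were seen.

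Summed over all kept cells of a mouse, 2421 of 12613 genes tested passed an adjusted p of 0.05 (19.2%). Of these, 1184 were higher in NZB (9.39% of genes tested) and 1237 lower (9.81%), with a median log2 fold change of -0.03 over all genes. Levels, given as CPM (UMIs of a gene per 1000000 UMIs of the mouse or of its class), of the 3 NZB and 3 NZW mice did not overlap for 5114 genes (40.5%). The number of lower genes fell to 822 without NZB mouse 2 and 790 without NZW mouse 3. In sums over whole marrow, fewer cells of a type and less RNA per cell cannot be told apart.

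The gene with the smallest p among those higher in NZB was Ftl1, the light chain of ferritin, the iron storage protein. Ftl1 stood at 2926.2, 2477.1, and 2470.3 CPM in NZB and 60.3, 73.9, and 84.3 CPM in NZW (log2 fold change 5.27 ± 0.14 SE, adjusted p = 2.32e-11). The gene with the smallest p among those lower was Ftl1-ps1, annotated as a copy of it, at 14.2, 12.5, and 11.4 CPM in NZB and 1921.7, 1868.7, and 1940.5 CPM in NZW (-7.15 ± 0.14, adjusted p = 1.04e-12). NZB thus had a high gene and a low copy, and NZW a low gene and a high copy. Summed over the pair, NZB held 2940.4, 2489.6, and 2481.7 CPM and NZW 1982.0, 1942.6, and 2024.8 CPM, a 1.33-fold difference (log2 0.50 ± 0.10 SE, adjusted p = 0.00378). Fth1, the ferritin heavy chain, differed by 0.32 ± 0.10 on the log2 scale (adjusted p = 0.0303).

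The sequences of the pair are shown because they are nearly alike. In mm10 with the GENCODE vM21 annotation, Ftl1 lies at chr7:45457944-45459884 on the minus strand and Ftl1-ps1, which that annotation lists as protein coding, at chr13:74399694-74407346 on the plus strand. Their transcripts were 99.6% identical over 910 aligned bases, with 2 differences in the 549 bases of the coding sequence and 3 in the last 300 bases, where the 3′ chemistry reads. Both coding differences fall in the window of coding bases 385 to 504, in capitals:
Ftl1: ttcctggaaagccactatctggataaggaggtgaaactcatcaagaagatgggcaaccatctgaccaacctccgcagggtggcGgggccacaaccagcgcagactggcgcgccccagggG
Ftl1-ps1: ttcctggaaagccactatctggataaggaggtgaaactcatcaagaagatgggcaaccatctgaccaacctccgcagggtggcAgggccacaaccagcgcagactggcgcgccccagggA

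Cell Ranger counts a read for a gene only where it maps there with confidence. Which sequence the ferritin transcripts of each strain carry was not tested. Reads that fit both genes equally are not counted, so the sum holds only reads assigned to 1 of them. A gene and its copy also went in opposite directions in 3 other pairs. Tropomyosin Tpm3-rs7, a copy of Tpm3, stood at 171.8, 157.1, and 152.0 CPM in NZB and 5.87, 6.73, and 5.86 CPM in NZW (log2 4.79 ± 0.13 SE, adjusted p = 2.32e-11), while Tpm3 was lower in NZB (-0.67). Their sum averaged 343.0 ± 13.7 and 316.5 ± 12.0 CPM and did not pass (0.21 ± 0.09, adjusted p = 0.123). For Pcna, the sliding clamp of DNA polymerase, the log2 fold change of 0.99 (adjusted p = 5.01e-05) became 0.39 (adjusted p = 0.027) once the copy Pcna-ps2 was added, with mean sums of 73.2 and 59.6 CPM.

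The monocyte surface antigens Ly6c1 and Ly6c2 formed a pair in which the sum differed as well. Ly6c2 stood at 66.9, 69.5, and 60.4 CPM in NZB and 634.8, 612.3, and 629.8 CPM in NZW (log2 -3.16 ± 0.13 SE, adjusted p = 2.07e-09), and Ly6c1 at 60.7, 43.0, and 33.4 CPM against 0.22, 0.122, and 0.378 CPM (7.61 ± 0.36, adjusted p = 1.54e-07). NZW marrow carried almost only Ly6c2 UMIs, whereas NZB marrow carried both at similar levels. The sum averaged 111.3 ± 16.9 CPM in NZB and 625.9 ± 11.9 CPM in NZW (-2.40 ± 0.14, adjusted p = 1.53e-07). Both genes lie on the minus strand of chromosome 15, Ly6c1 at chr15:75044018-75048830 and Ly6c2 at chr15:75108158-75111970. Their transcripts were 97.6% identical over 822 aligned bases, with 9 differences in 393 coding bases, of which 6 fall in the first 120, in capitals:
Ly6c1: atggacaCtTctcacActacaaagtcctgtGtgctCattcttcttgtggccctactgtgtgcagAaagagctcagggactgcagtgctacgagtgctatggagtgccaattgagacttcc
Ly6c2: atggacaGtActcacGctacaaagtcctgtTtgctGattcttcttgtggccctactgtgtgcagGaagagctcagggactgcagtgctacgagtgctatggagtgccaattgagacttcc

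**Figure D2:**
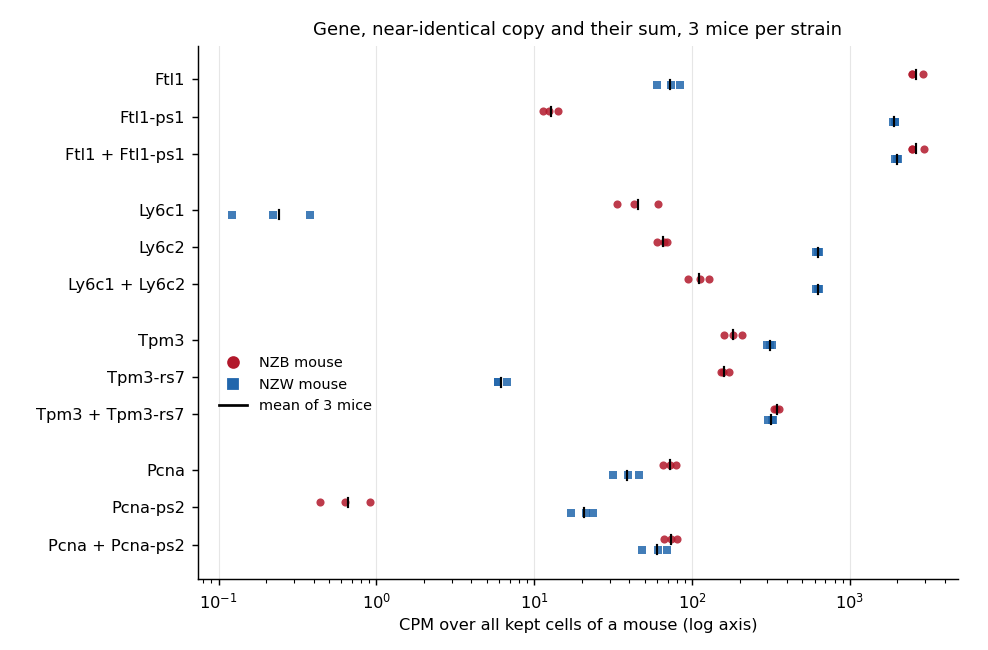
CPM over all kept cells of a mouse (log axis) for 4 genes, their near-identical copies, and the sum of each pair, with 1 point per mouse (red circles NZB, blue squares NZW) and a bar at the mean. The sums of the Ftl1, Tpm3, and Pcna pairs lie close together in the strains although their members lie far apart, while the Ly6c sum averages 111.3 CPM in NZB and 625.9 CPM in NZW.

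Other genes with the smallest p values in whole marrow belonged to several kinds. Siglech, a surface lectin of plasmacytoid dendritic cells, stood at 177.9, 141.0, and 129.0 CPM in NZB and 15, 16.0, and 16.1 CPM in NZW (log2 3.34 ± 0.13 SE, adjusted p = 1.7e-09), a call lost at 2000 UMIs and 1000 genes a cell (2.58, adjusted p = 0.0792). Apobec3, a cytidine deaminase that restricts retroviruses, stood at 170.6, 172.0, and 168.8 CPM against 28.2, 38.4, and 36.8 CPM (2.40 ± 0.11, adjusted p = 8.06e-09), and Pi16 at 42.1, 35.9, and 41.1 CPM against 1.76, 0.673, and 1.2 CPM (5.15 ± 0.22). The NZB mice lay above the NZW mice in each. BC023719, Htatip2, Klk1b27, Dgkeos, and Tc2n were the others of the 10 higher genes with the smallest p, each at or close to 0 in NZW.

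Among the 10 lower genes were Mndal, an interferon-inducible gene of the Ifi200 family, at 9.38, 8.68, and 8.58 CPM in NZB and 91.0, 77.9, and 92.5 CPM in NZW (log2 -3.21 ± 0.13 SE, adjusted p = 1.99e-09). Histone gene Hist1h4i stood at 1.83, 1.19, and 1.23 CPM against 53.6, 62.7, and 57.4 CPM (-5.30 ± 0.17). Mfng, a glycosyltransferase that modifies Notch receptors, stood at 0.343, 0.377, and 0.175 CPM against 11.5, 12.8, and 13.2 CPM (-5.23 ± 0.24). All 3 were several-fold lower in every NZB mouse. Lefty1, Cryzl2, Nt5c2, AC139671.1, and 1700097N02Rik completed the set with Ftl1-ps1 and Ly6c2. Histone and MHC genes have close relatives, so the gene to which their UMIs were assigned is uncertain.

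In the whole-marrow sums, all 11 tested plasmacytoid dendritic cell genes were higher in NZB, with a median log2 fold change of 1.14. Klk1 stood at 241.1, 168.9, and 164.1 CPM against 2.42, 1.47, and 2.02 CPM, and the gut-homing receptor Ccr9 stood at 79.4, 60.6, and 52.5 CPM against 11.2, 15.9, and 13.5 CPM (log2 2.33 ± 0.17 SE, adjusted p = 3.53e-06). The smallest differences were those of the transcription factors Tcf4 (0.57) and Irf8 (0.49 ± 0.13, adjusted p = 0.0151). Of these 11 genes, 2 passed with 2000 UMIs and 1000 genes required, when the median was 0.57.

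Of the 13 genes of the pre-B receptor and of V(D)J recombination, 10 were lower in NZB, with a median of -1.16. Igll1, a surrogate light chain, stood at 16.9, 11.2, and 29.9 CPM in NZB and 103.7, 99.7, and 106.5 CPM in NZW (log2 -2.34 ± 0.33 SE, adjusted p = 0.00202). Vpreb3, which assists receptor assembly, stood at 94.0, 81.9, and 125.1 CPM against 585.1, 397.5, and 429.0 CPM (-2.15 ± 0.30), and the kinase Syk was lower as well (-1.13 ± 0.18). Dntt, the polymerase that adds junctional bases, did not pass (-0.46, adjusted p = 0.317), nor did the kinase Btk (-0.18, adjusted p = 0.289). The B-lineage factor Ebf1 stood at 79.0, 62.0, and 102.3 CPM against 442.8, 366.7, and 376.4 CPM (-2.20 ± 0.21, adjusted p = 5.25e-05), and 8 of 13 B-lineage factors were lower with 1 higher, Irf8. Every NZB mouse lay below every NZW mouse for Igll1, Vpreb3, and Ebf1.

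Transcripts of plasma cells and the secretory pathway were higher in NZB in part. Of 18 genes of plasma cells and the secretory pathway 10 were higher and 2 lower, with a median of 0.68. Jchain, which joins the units of IgA and IgM, stood at 915.9, 1332.4, and 2000.4 CPM in NZB and 257.7, 253.6, and 414.0 CPM in NZW (log2 2.29 ± 0.46 SE, adjusted p = 0.0126). Among 11 immunoglobulin constant regions, Ighm (1.26 ± 0.32, adjusted p = 0.0255) and Igkc (2.10 ± 0.56, adjusted p = 0.0389) passed, beside 19.2% of all genes called in either direction. The chaperone genes Sdf2l1 (1.08 ± 0.13), Pdia4 (0.86), and Manf (0.87) were higher. Irf4, a factor of plasma cell differentiation, was lower (-1.72, adjusted p = 0.000476), and Xbp1, another such factor, did not pass (-0.25, adjusted p = 0.21). Mzb1 stood at 77.6, 72.9, and 109.1 CPM in NZB and 154.8, 137.5, and 125.7 CPM in NZW. Genes of this list were also higher within monocyte-like and granulocyte-monocyte precursor-like cells, as described below. Their cell source in whole marrow was not tested.

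Several immune families moved both ways. Of 45 interferon-stimulated genes 15 were higher and 7 lower (median 0.26, with 4 lower without NZW mouse 2 or 3), led by Apobec3, by the antiviral membrane protein Ifitm2, which was lower at 554.1, 584.7, and 522.2 CPM against 1272.6, 1194.0, and 1200.7 CPM (log2 -1.05 ± 0.10 SE, adjusted p = 1.43e-05), and by the guanylate-binding protein Gbp7 (1.30). Its neighbor Ifitm3 was higher, at 1030.3, 1100.8, and 894.3 CPM against 526.0, 559.8, and 535.9 CPM (0.99 ± 0.11). Of 12 MHC class I genes 6 were higher, led by H2-Q7 (2.27 ± 0.18), and 3 lower, led by H2-T22 (-1.41) and H2-T23 (-1.27 ± 0.14). Of 12 toll-like receptor genes 6 were higher, among them Tlr7, the sensor of single-stranded RNA (1.33 ± 0.16, adjusted p = 8.89e-05), Irak4 (0.71 ± 0.13), and Tlr2 (0.87 ± 0.17), and Tlr1 was lower (-1.80 ± 0.37). Of 13 Fc receptor and SLAM family genes 4 were higher and 4 lower (median -0.12), with 1 or 2 higher without NZB mouse 1 or 3 or NZW mouse 2 or 3. The inhibitory Fc receptor Fcgr2b stood at 21.1, 19.4, and 17.3 CPM in NZB and 43.4, 41.1, and 37.5 CPM in NZW (-0.99 ± 0.12, adjusted p = 7.7e-05), and the lymphocyte receptor Slamf6 was lower too (-2.22 ± 0.30).

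Of 12 globin and heme synthesis genes 3 were lower in NZB, with a median of -0.54, beside 9.81% of all genes. Alad, the enzyme of the second step of heme synthesis, stood at 140.4, 130.4, and 159.7 CPM in NZB and 236.3, 419.2, and 364.3 CPM in NZW (log2 -1.15 ± 0.20 SE, adjusted p = 0.00268), and the beta globins Hbb-bt (-1.84 ± 0.44, adjusted p = 0.026) and Hbb-bs (-1.51 ± 0.41, adjusted p = 0.0375) were lower as well. The globin gene Hba-a1 did not pass (-0.88, adjusted p = 0.169). Of 14 genes of the red cell membrane and erythroid factors 1 was lower (median -0.31), and 3 without NZW mouse 1 or with the NZBWF1 mice left out of the fit. Without NZB mouse 2, NZW mouse 2, or NZW mouse 3, 1 gene of the first list passed.

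To take the shares out, class-wise levels of each mouse were averaged with the same class weights for all mice (neutrophil-like cells 31.4%, erythroid-like 18.8%, monocyte-like 14.8%). On these standardized levels, tested with limma, 2070 of 9311 genes passed (22.2%), 840 higher in NZB (9.02%) and 1230 lower (13.2%). Of 1743 whole-marrow calls tested both ways in the same mice, 1131 kept their direction, 15 turned, and 597 were no longer called, while 924 genes were called on standardized levels alone. Without NZW mouse 3, 772 genes were lower. The median over all genes was again -0.03.

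The medians of the pre-B and plasmacytoid dendritic lists came back near the median of all genes. Most members of both lists are also markers by which these classes were named, so this return was favored by how the classes were made. The pre-B list had 1 member higher and 2 lower of 13 (median -0.09), and for Igll1 (-0.21, adjusted p = 0.762), Vpreb1 (0.10, adjusted p = 0.897), Vpreb3 (0.07, adjusted p = 0.65), and Ebf1 (-0.11, adjusted p = 0.278) the limma test found no difference. The plasmacytoid dendritic list had 4 higher and 5 lower of 11 (median -0.20), with 3 lower without NZW mouse 2 or with equal class weights. Most of its members thus still differed, in opposite directions, beside 22.2% of all genes called. Klk1 (4.72 ± 0.13), Siglech (1.74 ± 0.07, adjusted p = 1.38e-12), and Ccr9 (0.81 ± 0.11) were still higher, Runx2 (-0.41) and Pacsin1 (-0.58) were lower, and Bst2 was level (0.00, adjusted p = 0.983). Plasma-like and conventional dendritic-like cells were too few to enter these weights, so their transcripts are left out of the standardized levels. Mature B-cell surface proteins, with 4 of 14 lower in whole marrow (median -1.22, 2 lower without NZB mouse 2 or 3 and 9 with the replicate block), had 5 of 11 lower on standardized levels (median -0.15).

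Other lists kept or changed their direction. Globin and heme genes had 6 of 12 lower (median -0.55), with Alad at -1.10 ± 0.08 (adjusted p = 8.64e-08), although 1 of them was lower when every class had an equal weight and 2 without NZW mouse 3. Monocyte genes had 8 of 11 lower (median -0.41), among them Fn1 (-0.66), with 5 lower at equal class weights, and interferon-stimulated genes 4 higher and 9 lower of 39 (median 0.00), with 8 higher under the replicate block and 5 lower of 23 at 20 CPM or more. The 5 genes with the smallest p among those called higher here and not in whole marrow were Camk2d (1.06 ± 0.07, adjusted p = 2.09e-09, against -0.09 in whole marrow), the MHC class II chain H2-Ab1 (0.59 ± 0.07), Ryk, Elovl6, and Hspd1. The 5 lower were Cd7 (-1.93 ± 0.12, adjusted p = 1.49e-09), the NADPH oxidase subunit Cybb (-0.58), Xbp1 (-0.80), Apoe (-0.87), and Gpi1 (-0.51). With equal class weights Ryk (0.45, adjusted p = 0.127) and Apoe (-1.34, adjusted p = 0.0696) did not pass. H2-Ab1 and Xbp1 are also transcripts of the classes left out.

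**Figure D3:**
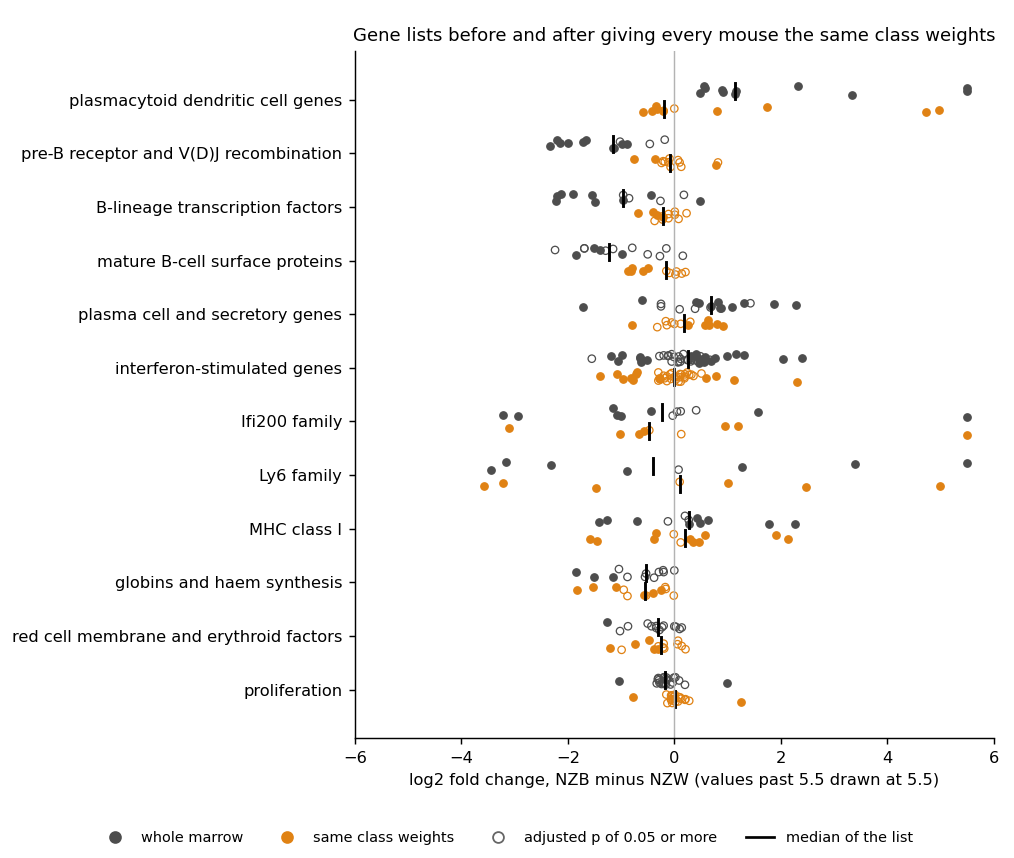
Log2 fold change of the members of 12 gene lists, NZB minus NZW, in sums over whole marrow (grey) and on levels with the same class weights in every mouse (orange); filled points passed an adjusted p of 0.05 and black bars mark the median of a list. The medians of the plasmacytoid dendritic list (1.14) and the pre-B list (-1.16) move to -0.20 and -0.09, whereas the globin and heme list stays at -0.54 and -0.55.

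Tests within classes made 3057 calls over 13 classes that were higher in NZB and 3106 that were lower. Classes of a mouse share 1 library, so they are not independent of each other. A gene was counted as strain-wide when it was called in the same direction in at least 6 classes and in the other direction in none. This held for 52 of the 6506 genes tested in at least 6 classes (0.799%), 25 higher and 27 lower in NZB, and for 16 higher genes without NZB mouse 2. By contrast, 2574 of the 3870 genes called in any class were called in 1 class, and 218 genes were called in both directions.

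The strain-wide genes were led by the ferritin pair. Ftl1 was higher and Ftl1-ps1 lower in 13 of 13 classes, with mean log2 fold changes of 5.05 and -7.25. Rps3a1, a ribosomal protein gene, was higher in 13 of 13 (1.15), Tpm3-rs7 in 12 of 12 (5.07), Apobec3 in 10 of 11 (2.34), and H2-Q7 in 10 of 11 (2.17). Hjurp, a centromere chaperone (9 of 12), the mitochondrial import receptor Tomm22 (9 of 13), the chaperone Hspa8 (9 of 13), Gm42031 (8 of 8), and the translation factor Eif4a1 (8 of 13) followed.

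Among the lower genes, the aspartic protease Ctse passed in 12 of 12 classes (mean log2 -4.49), and the nonclassical class I gene H2-T23 in 12 of 13 (-1.70). The ribosomal genes Rps2 (12 of 13, -1.04) and Rpl21 (12 of 13, -0.91), mt-Nd1, a mitochondrially encoded subunit of complex I (11 of 13, -0.74), Tpm3, Mndal (9 of 10, -3.21), Wdr89, and 1700097N02Rik (8 of 8) completed the 10 lower genes called in the most classes. Ribosomal genes have many processed copies, so the gene to which their UMIs were assigned is uncertain. Of the 52 genes, 49 were also called in whole marrow. By position, beside 52 of the 11163 genes tested in at least 1 class, 7 of 589 such genes on chromosome 17, which carries the MHC, were strain-wide (1.19%), 6 of 677 on chromosome 4 (0.886%), 7 of 835 on chromosome 7 (0.838%), and 2 of 13 mitochondrial genes (15.4%).

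**Figure D4:**
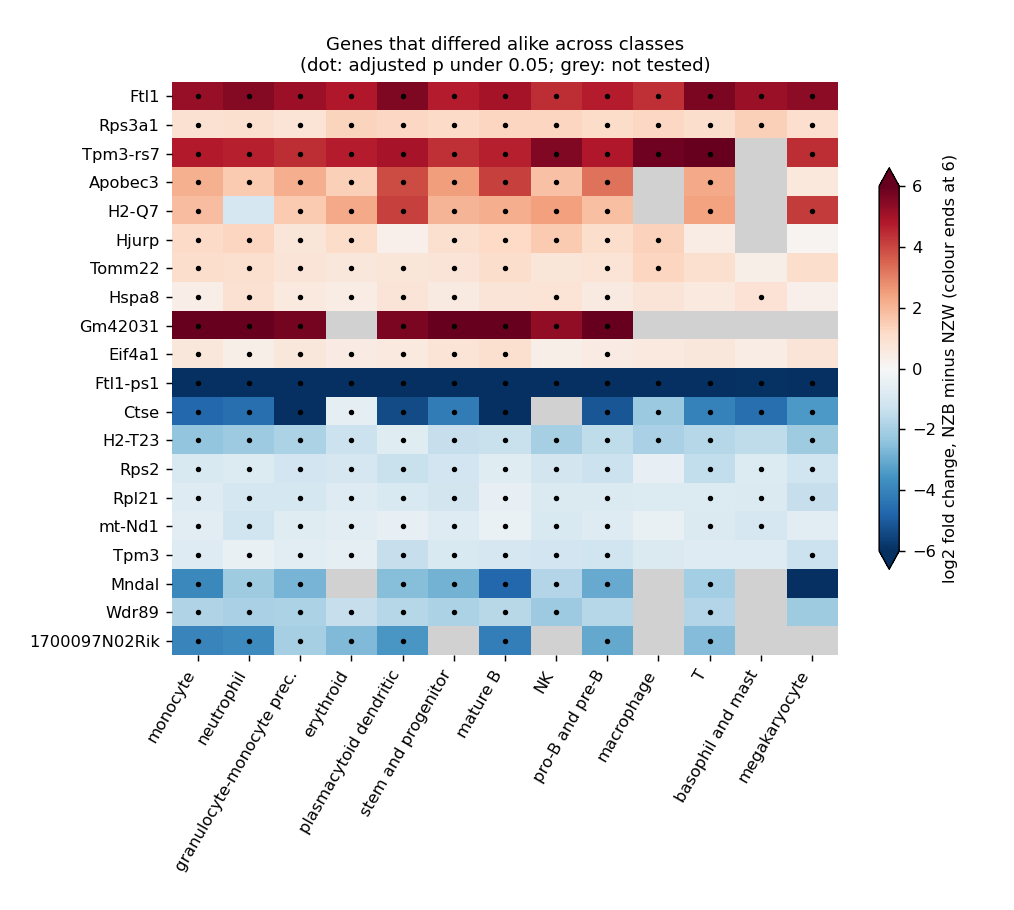
Log2 fold change, NZB minus NZW, of the 10 higher and 10 lower genes called in the most classes (rows) in each of 13 classes (columns), on a color scale that ends at 6 in either direction; dots mark an adjusted p under 0.05 and grey cells were not tested. Ftl1, Rps3a1, and Ftl1-ps1 carry a dot in every column, whereas H2-Q7 has no dot in neutrophil-like cells.

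Monocyte-like cells had the most calls, 2217 of 9150 genes (24.2%), with 1154 higher (12.6%) and 1063 lower (11.6%), on 1577 NZB and 2225 NZW cells. The lower genes numbered 672 without NZB mouse 2. Ly6c2 stood at 269.6, 276.5, and 292.0 CPM in NZB and 1986.9, 2260.3, and 2070.3 CPM in NZW (log2 -2.89 ± 0.10 SE, adjusted p = 2.96e-24). Mndal was lower (-3.87 ± 0.16). Ifi202b, an Ifi200 gene in the chromosome 1 interval linked to lupus in NZB crosses, had 2122 UMIs at 362.4, 442.5, and 421.9 CPM in NZB and 0 UMIs in NZW, 767.8-fold higher by a floor of 3 UMIs over the 3 NZW mice.

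As a whole class, NZB monocyte-like cells had fewer interferon transcripts and more of the cell cycle. Of 44 interferon-stimulated genes 23 were lower and 2 higher (median -0.46). Slfn5 stood at 51.5, 47.9, and 30.8 CPM in NZB and 177.1, 157.2, and 146.0 CPM in NZW (log2 -1.83 ± 0.14 SE, adjusted p = 1.91e-12), and Rsad2, the antiviral viperin, at 3.97, 4.47, and 2.93 CPM against 29.6, 32.4, and 32.9 CPM (-2.97 ± 0.29). Of 23 proliferation genes 16 were higher and 1 lower (median 0.45), with Rrm2 (0.68), Tyms (0.66), and Cdk1 (0.49), and 8 were higher without NZB mouse 2. Primary granule genes, which mark early myeloid cells, were higher in 6 of 7 (median 1.07), among them the protease activator Ctsc (1.2 ± 0.11, adjusted p = 2.83e-09) and Prtn3 (1.07). Of 13 monocyte genes 7 were lower, such as the fibronectin gene Fn1 (-0.63 ± 0.10) and the growth factor receptor Csf1r (-0.48).

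Within the shared cluster led by F13a1, part of this pattern was absent or turned. There, 1020 of 7611 genes passed (13.4%), on 155, 547, and 203 NZB and 162, 310, and 263 NZW cells. Of 27 interferon-stimulated genes 10 were higher and 2 lower (median 0.32), the opposite balance, with Ifitm3 at 1617.0, 2090.7, and 1959.3 CPM in NZB and 1247.5, 1324.4, and 1178.9 CPM in NZW (0.60 ± 0.11) and Slfn5 without a call (0.44 ± 0.37, adjusted p = 0.496). Of 23 proliferation genes 1 was higher, Pcna (1.38 ± 0.17), and 1 lower, with a median of 0.00. The copy Pcna-ps2, which lowered the Pcna difference in whole marrow from 0.99 to 0.39, was not added here. Primary granule genes were still higher in 5 of 7 (median 0.63), as were Hspa5, the chief chaperone of the endoplasmic reticulum (1.05 ± 0.11, 1.16 in the whole class), and Apobec3 (2.31 ± 0.15). Ly6c2 (-3.18 ± 0.12), Mndal (-3.33 ± 0.21), and the 1506 UMIs of Ifi202b against 0 were also found within this cluster.

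Neutrophil-like cells, 3900 of NZB and 4290 of NZW, had 1018 of 8356 genes called (12.2%), with 533 higher (6.38%) and 485 lower (5.8%). Their clusters were unequally mixed. The cluster led by Retnlg and Gm5483 averaged 5.49% of NZB and 2.92% of NZW cells. The cluster led by Mmp8, Mmp9, and Retnlg averaged 9.87% and 5.77%, and the cluster led by Orm1 and Ltf 3.99% and 6.79%. Higher genes numbered 332 without NZW mouse 2 and 321 without NZW mouse 3, and with the replicate block 948 were higher and 732 lower. Interferon-stimulated genes went opposite to those of the monocyte-like class, with 12 of 38 higher and 1 lower (median 0.71). Ifitm3 stood at 1759.6, 1774.1, and 1353.7 CPM in NZB and 524.2, 414.2, and 473.6 CPM in NZW (log2 1.98 ± 0.15 SE, adjusted p = 3.03e-08), and the lymphocyte antigen Ly6e at 151.6, 264.3, and 193.9 CPM against 16.7, 41.6, and 23.6 CPM (3.09 ± 0.29). Gbp7 (3.30 ± 0.45) and Irf7, the interferon master regulator (1.02, adjusted p = 0.029), were higher too, whereas Isg15 did not pass (0.67, adjusted p = 0.0763). In the shared cluster led by Ly6g and Ifitm6, where 252 of 2954 genes passed (8.53%), 4 of 14 interferon-stimulated genes were higher and 1 lower (median 0.39), with Ifitm3 at 1.61 ± 0.13 and Ly6e at 3.33 ± 0.38.

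Some granule and receptor genes of neutrophil-like cells were called. Of 11 secondary and tertiary granule genes 3 were higher, among them the iron-binding lipocalin Lcn2 (log2 0.71, adjusted p = 0.000536) and Ngp (0.57, adjusted p = 0.00193), while Camp (-0.08, adjusted p = 0.717) and Ltf (0.22, adjusted p = 0.368) did not pass. The toll-like receptor genes Tlr4 (0.94), Tlr2 (1.30), and Irak4 (1.01) were higher in the whole class, 1 of these 3 without NZW mouse 2. In the shared cluster Irak4 did not pass (-0.30 ± 0.39, adjusted p = 0.751) and Tlr2 and Tlr4 were below the filter. The largest loss was Ly6c2, with 5 UMIs in NZB and 7595 in NZW, at 728.8, 586.8, and 640.7 CPM in NZW (-10.16 ± 0.27, adjusted p = 2.38e-15).

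Cd3d, the delta chain of the T-cell receptor complex, gave an unusual pattern. In neutrophil-like cells it stood at 6.78, 6.2, and 6.2 CPM in NZB and 227.3, 142.6, and 190.7 CPM in NZW (log2 -4.70 ± 0.22 SE, adjusted p = 1.16e-10), and in macrophage-like cells 1 UMI in NZB faced 82 in NZW. In T-like cells it was level, at 651.8, 604.3, and 618.0 CPM against 875.6, 612.1, and 841.6 CPM (-0.22 ± 0.21, adjusted p = 0.808). Its partners Cd3e and Cd3g were below the filter in neutrophil-like cells. Whole-marrow Cd3d was lower in NZB (-2.03 ± 0.41, adjusted p = 0.0127), whereas the share of T-like cells was 2.04% in NZB and 1.39% in NZW.

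Granulocyte-monocyte precursor-like cells had 920 of 8352 genes called (11%), 433 higher (5.18%) and 487 lower (5.83%), with 252 and 306 without NZW mouse 3 and 316 lower without NZB mouse 2. Of 11 secretory genes 5 were higher and 1 lower, with Creld2 (log2 1.61) and Manf (1.08) among the higher. In the shared cluster led by Mpo and Ctsg, where 699 of 7221 genes passed (9.68%), 6 of 11 were higher, and Creld2 stood at 131.7, 213.2, and 217.4 CPM in NZB and 46.1, 81.1, and 53.9 CPM in NZW (1.54 ± 0.17). Ctsc (1.23) was higher and Irf8, the factor that directs precursors to monocytes and dendritic cells, lower (-0.73). Myeloperoxidase, Mpo, did not pass (-0.30, adjusted p = 0.0728).

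Plasmacytoid dendritic-like cells, 1249 of NZB and 438 of NZW, had 523 of 7251 genes called (7.21%), 270 higher (3.72%) and 253 lower (3.49%). Their defining genes did not move together, with 4 higher and 3 lower of 11 (median -0.12), and 1 lower without NZB mouse 2. Most of these genes are also markers by which the class was named. Klk1 stood at 2926.6, 2990.0, and 2922.1 CPM in NZB and 113.7, 67.1, and 95.7 CPM in NZW (log2 5.03 ± 0.14 SE, adjusted p = 2.18e-45), and Siglech at 2109.5, 2446.1, and 2217.9 CPM against 629.4, 670.5, and 669.6 CPM (1.81 ± 0.10). Klk1b27 had 1388 UMIs in NZB and 0 in NZW, 192.9-fold higher by a floor of 3 UMIs. By contrast Irf8 (-0.12, adjusted p = 0.521), Bst2 (0.24, adjusted p = 0.109), and Tcf4 (-0.24, adjusted p = 0.117) did not pass and Runx2 was lower (-0.51). In the shared cluster led by Cox6a2 and Bst2, where 177 of 3229 genes passed (5.48%), Klk1 (4.34 ± 0.18), Siglech (1.52 ± 0.12), and Ccr9 (0.52 ± 0.15) were higher again.

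The genes lost in NZB plasmacytoid dendritic-like cells were led by Ifitm2, at 26.2, 30.1, and 11.9 CPM in NZB and 1664.4, 2041.7, and 1843.8 CPM in NZW (log2 -6.26 ± 0.16 SE, adjusted p = 2.63e-46). Cd7, a surface glycoprotein of lymphoid cells, stood at 13.1, 6.27, and 10.2 CPM against 674.9, 694.0, and 709.2 CPM (-6.11 ± 0.20), so both were nearly confined to NZW cells of the class. Of antigen presentation genes, 5 of 9 MHC class II genes were higher (median 0.69), and 5 of 12 class I genes were higher and 1 lower (median 0.54). H2-Ab1 stood at 1382.6, 1401.0, and 1187.8 CPM in NZB and 409.5, 583.3, and 425.5 CPM in NZW (1.51 ± 0.19, adjusted p = 0.000171), and its chaperone Cd74 was higher (0.93). Within the shared cluster edgeR called 0 of 7 class II genes (median 0.13, with 0 higher and 1 lower at an unadjusted p under 0.05), with H2-Ab1 at 0.67 ± 0.31 (adjusted p = 0.38), whereas 5 of 12 class I genes were higher, among them H2-Q7 (3.54 ± 0.38) and H2-D1 (0.73 ± 0.10). The stem cell antigen Ly6a was higher in the class (3.63 ± 0.34) and in the cluster (2.86 ± 0.41).

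Pro-B and pre-B-like cells, 428 of NZB and 2228 of NZW, had 215 of 9243 genes called (2.33%), with 112 higher (1.21%) and 103 lower (1.11%). The NZB mice held 80, 199, and 149 of these cells, which limits what the tests could call. Without NZB mouse 3, 70 were higher and 53 lower, and without NZB mouse 2, 69 were higher. The stage's own genes gave 0 calls in either direction among 13 with edgeR and with DESeq2 (median -0.06), with 1 higher and 2 lower at an unadjusted p under 0.05. Most of these genes are also markers by which the class was named, so like levels within it were favored by how it was made. Igll1 stood at 707.9, 375.0, and 775.2 CPM in NZB and 591.1, 672.4, and 778.9 CPM in NZW (log2 -0.17, adjusted p = 0.906), and Ebf1 at 2075.4, 1901.2, and 2165.4 CPM against 1802.3, 1807.3, and 2174.4 CPM (0.07, adjusted p = 0.886). The mice of the strains overlapped for both genes. In the shared cluster led by Myl4 and Bach2, where 132 of 6249 genes passed (2.11%), edgeR again called 0 of 11 (median 0.16, with 1 higher and 1 lower unadjusted). Beside the 2.33% and 2.11% of all genes called, 0 calls in so short a list does not show that the strains were alike.

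Among the genes that differed in pro-B and pre-B-like cells, Ifitm2 stood at 118.0, 52.1, and 119.5 CPM in NZB and 2004.2, 1799.8, and 2198.1 CPM in NZW (log2 -4.44 ± 0.19 SE, adjusted p = 1.41e-16), and its neighbor Ifitm1 had 12 UMIs in NZB and 6169 in NZW (-6.30). Apobec3 stood at 273.5, 419.3, and 317.7 CPM against 33.7, 38.1, and 35.3 CPM (3.25 ± 0.16). The class II genes H2-Ob (1.13) and H2-Ab1 (1.0) were higher and the inhibitory receptor Fcgr2b lower (-1.11, adjusted p = 0.0133). In the shared cluster Fcgr2b was at -1.56 ± 0.43 and H2-Ab1 at 0.78 ± 0.19.

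Mature B-like cells, 156 of NZB and 853 of NZW, had 180 of 5193 genes called (3.47%), 94 higher (1.81%) and 86 lower (1.66%). These counts leaned on single mice, with 37 to 47 higher without NZB mouse 1, 2, or 3 or NZW mouse 1 or 2, and 45 to 57 lower without NZB mouse 2 or 3 or NZW mouse 1 or 2. B-lineage factors were lower in 4 of 13 (median -0.41), namely Ebf1 (log2 -1.01 ± 0.17 SE, adjusted p = 0.00013), Irf8 (-0.92), Spib (-0.75), and Bach2 (-1.25), but in 2 without NZB mouse 3 or NZW mouse 1. The secretory gene Mzb1, a chaperone of B cells that make much IgM, was higher, at 855.7, 899.0, and 667.0 CPM in NZB and 219.6, 339.1, and 272.9 CPM in NZW (1.59 ± 0.19, adjusted p = 4.62e-08). Ly6d, a marker of B-lineage commitment, stood at 519.3, 691.5, and 531.3 CPM against 3667.4, 3482.3, and 3404.0 CPM (-2.59 ± 0.15). The cluster led by Fcmr and Ms4a1, whose smallest mouse held the most cells, had 12 to 28 cells a mouse, and in it 20 of 735 genes passed (2.72%) and edgeR called 0 of 9 factors (median -0.14, with 0 higher and 1 lower unadjusted).

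Erythroid-like cells, 659 of NZB and 794 of NZW, had 797 of 8601 genes called (9.27%), 345 higher (4.01%) and 452 lower (5.26%). Higher genes numbered 222 to 227 without NZB mouse 2, NZW mouse 2, or NZW mouse 3, and lower genes 294 without NZB mouse 2. Of 12 globin and heme genes 4 were lower (median -0.67) and of 14 membrane and factor genes 4 (median -0.33), with 2 of the latter without NZB mouse 2 or any NZW mouse. With the NZBWF1 mice left out of the fit, 10 and 8 were lower. Alad stood at 807.4, 663.9, and 701.1 CPM in NZB and 1726.9, 1605.3, and 1581.7 CPM in NZW (log2 -1.17 ± 0.11 SE, adjusted p = 3.48e-08), and Hbb-bt at 213.2, 322.5, and 409.8 CPM against 1019.1, 1132.3, and 1250.2 CPM (-1.83, adjusted p = 0.00998). Hba-a1 did not pass (-0.87, adjusted p = 0.256).

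The stages of the erythroid-like class were unequally mixed. The more mature of the 2 erythroid-like clusters, led by Hbb-bs and Hba-a1, averaged 1.73% of cells in NZB and 2.72% in NZW, and the earlier, led by the carbonic anhydrases Car1 and Car2, 4.39% and 3.05%. In the earlier cluster alone 614 of 8432 genes passed (7.28%), and the median of the globin and heme list was -0.06 with 3 of 12 lower. Those 3 were Alad at 614.5, 506.9, and 543.6 CPM in NZB and 1047.0, 995.4, and 1041.8 CPM in NZW (-0.86 ± 0.09, adjusted p = 1.69e-10), Hbb-bt (-1.24 ± 0.20), and Hbb-bs (-1.37 ± 0.30, adjusted p = 0.0477). Fech, the last enzyme of heme synthesis, did not pass (-0.33 ± 0.12, adjusted p = 0.0701). Hbb-bt and Hbb-bs are closely similar, and mice carry different alleles of this locus, so their assignment is uncertain. The factor Gata2 (1.16 ± 0.29) and the receptor Kit (0.57 ± 0.13), both of early progenitors, were higher in NZB within the cluster.

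Genes typical of other cells also differed within the erythroid-like class. Of 5 macrophage genes tested there 3 were higher in NZB, among them the complement genes C1qa, at 8.88, 6.97, and 9.95 CPM against 3.49, 2.72, and 1.98 CPM (log2 1.70), and C1qc (1.78). In the earlier cluster 2 macrophage genes were tested, with a median of 0.60, and edgeR called 0, adjusted or not. Pre-B genes were lower in 3 of 6 (median -1.28). The share of pro-B and pre-B-like cells was lower in NZB, while macrophage-like cells averaged 0.998% in NZB and 1.24% in NZW without a call. Hmox1, the heme-degrading enzyme of erythrophagocytic macrophages, was at 8.88, 7.79, and 10.4 CPM in NZB and 3.49, 2.99, and 0.661 CPM in NZW (2.01). With free RNA subtracted the macrophage count was again 3 of 5 and the pre-B count 3 of 6, and with doublets kept 1 of 8 macrophage genes was higher. The source of these transcripts in the class was not tested.

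The small classes gave few calls. T-like cells had 30 of 2063 genes called (1.45%). Trbc1, a constant region of the T-cell receptor beta chain within a stretch that NZW mice are known to lack, had 181 UMIs in NZB and 1 in NZW, a ratio of 172.4 (95% counting interval 30.6 to 6846.1), and Trbc2 did not pass (log2 -0.44, adjusted p = 0.385). The cytotoxic genes Nkg7 (1.54) and Ccl5 (1.97) were higher. NK-like cells had 60 of 2244 called (2.67%), with Ncr1, an activating receptor (-0.54, adjusted p = 0.0335), and Gzma, a granzyme (-0.56, adjusted p = 0.0429), lower and Ly6a at 106 UMIs against 3. Slamf6 was lower in both (-1.48 in T-like and -1.58 in NK-like cells).

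Macrophage-like cells had 28 of 1640 genes called (1.71%), with the complement genes C1qa (log2 -1.10, adjusted p = 0.0207) and C1qb (-1.08, adjusted p = 0.0385) lower in NZB, the reverse of C1qa in erythroid-like cells. Of the macrophage genes 3 were lower there, but 0 without NZB mouse 1, NZB mouse 3, or NZW mouse 2, and 6 without NZB mouse 2. Stem and progenitor-like cells had 134 of 3817 called (3.51%), with Lgals1 lower (-1.80 ± 0.17) beside strain-wide genes. Basophil and mast-like cells had 13 of 987 (1.32%) and megakaryocyte-like cells 28 of 2565 (1.09%). Single mice moved these counts. The 9 higher and 19 lower macrophage calls became 4 and 12 without NZW mouse 2, with 10 lower without NZB mouse 1 and 33 lower without NZB mouse 2. The 51 higher stem and progenitor calls fell to 26, 24, and 29 without NZB mouse 2, NZW mouse 2, or NZW mouse 3, and the 83 lower to 53 and 54 without NZB mouse 2 or NZW mouse 2. The 4 higher and 9 lower basophil and mast calls became 16 and 21 without NZB mouse 3, with 2 higher without NZW mouse 2 or 3. The 16 higher and 12 lower megakaryocyte calls became 50 and 19 without NZB mouse 1, with 6 to 8 higher without NZB mouse 2 or any NZW mouse. With the replicate block 44 genes were higher and 32 lower in T-like cells, 58 higher in NK-like cells, 25 higher in megakaryocyte-like cells, and 32 lower in macrophage-like cells. Plasma-like and conventional dendritic-like cells were too few in some mice for a gene test.

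Whether a strain difference depended on the class was tested against neutrophil-like cells with limma. The NZB minus NZW difference differed in 690 of 6174 genes for monocyte-like cells (11.2%), 381 of 6300 for erythroid-like cells (6.05%), and 161 of 6537 for pro-B and pre-B-like cells (2.46%). Directions are signed, so a loss in NZB that was weaker than in neutrophil-like cells counts as larger. In monocyte-like cells 540 differences were larger and 150 smaller than in neutrophil-like cells, but 347 and 349 by edgeR with mice as blocks. In pro-B and pre-B-like cells the split was 120 and 41 with limma and 66 and 117 with edgeR, and in erythroid-like cells 297 and 84 with limma, with 242 smaller by edgeR. With limma the median difference over all genes tested was 0.17 in each pair, a shift toward larger. The limma test used CPM without TMM factors, whereas the edgeR fit used them. The balance of the directions is therefore not stable. A gene at 20 CPM in the class where it is expressed entered these tests even when it was close to absent from the other, and where the strains differ in the first class such a gene had to differ between the classes. Without any single mouse the 540 larger differences of monocyte-like cells fell, from 145 without NZW mouse 2 to 325 without NZB mouse 2. The 297 of erythroid-like cells ran from 95 without NZW mouse 2 to 204, and the 120 of pro-B and pre-B-like cells from 26 without NZW mouse 2 to 165.

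Ifitm2 changed direction between classes. It was higher in NZB neutrophil-like cells as a whole class, at 916.5, 845.4, and 679.9 CPM against 497.0, 522.0, and 468.1 CPM (log2 0.90 ± 0.14 SE). That value holds the unequal mixture of clusters in the class. Ifitm2 was lower in pro-B and pre-B-like cells (limma difference -5.15, adjusted p = 0.000112) and in erythroid-like cells (difference -3.25). It was also lower in plasmacytoid dendritic-like cells, as above, and in mature B-like cells, where 3 UMIs in NZB faced 2925 in NZW (ratio 219.2, 74.9 to 1063.4). NK-like cells had 7 UMIs in NZB and 601 in NZW. In monocyte-like (-0.66 ± 0.10) and precursor-like cells (-0.99 ± 0.11) the difference was smaller, and in macrophage-like (-0.44, adjusted p = 0.578) and T-like cells (-1.55, adjusted p = 0.456) it did not pass.

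Ly6c2 was lower in each of the 7 classes in which it was tested, but by different amounts. The NZB level was 269.6 to 292.0 CPM in monocyte-like cells, 194.8 to 241.0 CPM in plasmacytoid dendritic-like cells, and 0.23 to 0.714 CPM in neutrophil-like cells, whereas NZW cells of these classes held 586.8 CPM or more in every mouse. The difference against neutrophil-like cells was 5.86 for monocyte-like cells. Ly6c1, in turn, had 961 UMIs in NZB and 3 in NZW monocyte-like cells (ratio 347.7, 118.6 to 1689.0).

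**Figure D5:**
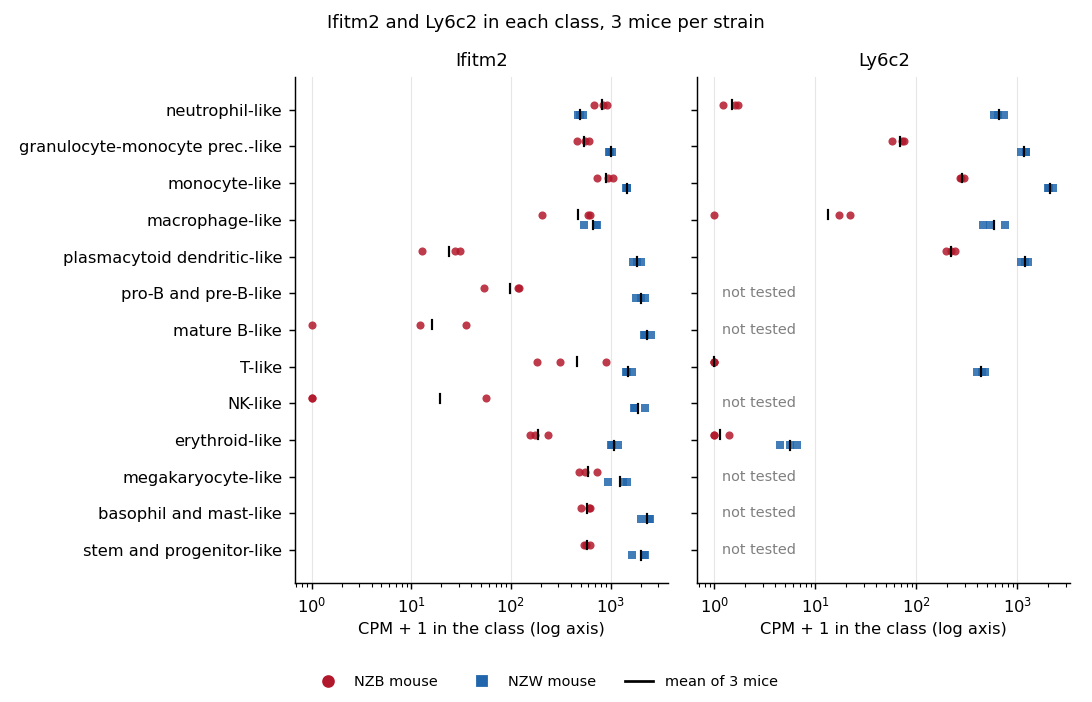
CPM + 1 (log axis) of Ifitm2 and Ly6c2 in each class that tested them, with 1 point per mouse (red circles NZB, blue squares NZW) and a bar at the mean of 3 mice. NZB points of Ifitm2 lie above the NZW points in neutrophil-like cells and below them in B-lineage, NK-like, and plasmacytoid dendritic-like cells, and Ly6c2 lies lower in NZB in every class shown.

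The Ifi200 family, sensors of cytosolic DNA encoded in a cluster on chromosome 1, had members nearly confined to 1 strain, in whole marrow or within a class. Ifi202b was tested in 4 classes, with 0 UMIs in NZW in each, and stood highest in monocyte-like cells, followed by NK-like cells (243.4, 203.2, and 176.5 CPM), precursor-like cells (113.7, 124.2, and 132.1 CPM), and plasmacytoid dendritic-like cells (56.7, 30.1, and 27.2 CPM). The monocyte-like mice lay above those of the other 3 classes, and precursor-like and NK-like mice did not overlap either. Ifi213 had 2 UMIs in NZB and 99 in NZW monocyte-like cells (ratio 45.6, 12.3 to 381.8), Ifi203 was lower there (log2 -2.45), and Ifi211 had 242 UMIs against 1 in plasmacytoid dendritic-like cells (ratio 100.9, 17.9 to 4001.6). Over whole marrow, however, Ifi211 had 824 UMIs in NZB and 372 in NZW, and Ifi213 17 and 182. In whole marrow 2 of 12 family members were higher and 6 lower (median -0.23).

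Genes with at least 5 CPM in each mouse of 1 parent and at most 3 UMIs in the other were rare. They numbered 9 of the 8830 genes at that level in NZB and 2 of the 9070 in NZW. Against a floor of 3 UMIs over the 3 NZW mice, Ifi202b, with 3187 UMIs in NZB and 0 in NZW, stood 1350.5-fold higher. By the same floor Klk1b27 (1536 and 0) stood 650.9-fold higher, BC023719 (1076 and 0) 456.0-fold, and Pld5 (633 and 0) 268.2-fold. Htatip2, an oxidoreductase, had 1028 and 3 (ratio 435.6, 148.6 to 2115.8). Of the NZW genes, Me1, the cytosolic malic enzyme, had 559 UMIs against 2 in NZB (ratio 219.9, 60.6 to 1819.9). Intervals cover counting error only, and the floor is a set value rather than a confidence limit. Whether reads of a strain fail to map at these genes was not tested.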

How the data were processed

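Cells flushed from both femurs of each mouse were filtered, treated with red cell lysis buffer, and loaded for 10x 3′ v3.1 sequencing. The authors deposited UMI counts per gene and barcode, whole numbers that were not normalized, made with Cell Ranger 3.1.0 and bcl2fastq 2.20 against mm10 per the submitters' processing notes. A barcode's library was the number after its hyphen. Of 44192 barcodes of the 6 mice, 25249 passed 1000 UMIs, 500 genes, and 10% mitochondrial UMIs, and the kept barcodes of a mouse held 8738514 to 16343916 UMIs. Of 31053 genes, 30934 were matched to GENCODE vM21.

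Doublets were scored against simulated pairs, and the top 0.8% per 1000 barcodes of a library, 1553 in the 6 mice, were removed from cell classes but not from whole-marrow sums. Cells were clustered with scanpy 1.11.5 and leidenalg 0.10.2 (20% most variable genes, 30 components, 15 neighbors, resolution 2), the final time without genes that differed between strains, and clusters were named by marker genes. Free RNA was read from small barcodes and was subtracted in an alternative only.

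Counts were summed per mouse, or per mouse and class with at least 10 cells, and tested with edgeR 4.0.16 (TMM, quasi-likelihood) in R 4.3.3, with all 9 mice in the fit and Benjamini-Hochberg adjustment at 0.05. Standardized levels and class dependence were tested on log2(CPM + 1) with limma 3.58.1, at 5 and 20 CPM or more. The standardized fit left out NZBWF1 mouse 1. Errors of log2 fold changes are SEs. DESeq2 1.42.0 was an alternative, among 53 alternatives planned and 4 added after seeing the data. The pipeline was tested on simulated data.

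Same-numbered NZB and NZW mice deviated together (correlations 0.458, 0.304, and 0.145 over 5683 genes, against -0.433 to 0.188 between mice with different numbers), so the replicate number was used as a block in an alternative fit. The labels give separate mice, and the mice were bought and delivered together. The named genes were list members with the smallest p, the 10 smallest p in each direction in whole marrow, 3 per direction in each class, 10 per direction of strain-wide genes, 5 per parent or direction elsewhere, and, for members that did not pass, the most expressed. Some items that the rule names are not reported here. Members of lists named beyond these were chosen after their values were seen. The 27 gene lists and the comparison itself were chosen with earlier results of these data known.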

Additional observations from a re-analysis of the deposited data

Results flagged for a closer look

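In 18 pairings of a gene with a class, over 16 genes, the NZB minus NZW difference, in log2 units, differed between the class and neutrophil-like cells by the limma test of the difference itself. The values given are signed, the NZB minus NZW difference in the class minus that in neutrophil-like cells. A positive value can thus mark a weaker loss in NZB. In erythroid-like cells the value was 5.58 for Gm15915, 3.91 for Ctse, and 4.84 for Gm11837. It was -3.25 for Ifitm2, -2.31 for Hist1h4i, and -3.95 for Gm42031. Ctse was lower in NZB in both classes (edgeR log2 fold change -0.55 in erythroid-like and -4.53 in neutrophil-like cells). In monocyte-like cells the value was 7.40 for Ifi202b, 6.66 for Ly6c1, and 5.86 for Ly6c2. It was -2.74 for Ly6e, -3.0 for Rtp4, and -1.22 for Mcur1. Ly6c2 was lower in NZB in both classes (edgeR log2 fold change -2.89 in monocyte-like and -10.16 in neutrophil-like cells). In pro-B and pre-B-like cells the value was 5.21 for Dgkeos, 7.07 for Ly6c2, and 1.68 for Pcgf5. It was -5.15 for Ifitm2, -4.28 for Me1, and -2.89 for Napsa.

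For 8 of these results the gene was close to absent from 1 of the classes compared in both strains and was too low for a gene test there. These were Gm15915, Gm11837, Ifi202b, Ly6c1, Dgkeos, and Me1, all low in neutrophil-like cells, Gm42031, low in erythroid-like cells, and Ly6c2, low in pro-B and pre-B-like cells. They passed the 20 CPM minimum through the class where they are high, so their difference follows from where the gene is detected and is no evidence of a class-dependent strain effect.

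With edgeR and mice as blocks, 7 of the 18 did not pass, namely Gm15915 (4.24, adjusted p = 0.953), Gm11837 (5.41, adjusted p = 0.236), Gm42031 (-2.84, adjusted p = 0.535), Ifi202b (6.85, adjusted p = 1.0), Dgkeos (5.4, adjusted p = 0.988), Ly6c2 in pro-B and pre-B-like cells (8.15, adjusted p = 0.186), and Me1 (-3.39, adjusted p = 1.0). The other 11 passed in both fits. Cells of the classes compared came from the same libraries.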

How the results depend on the processing

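The higher plasmacytoid dendritic share and the lower pro-B and pre-B share were called without any single mouse (log2 1.81 to 2.04 and -2.14 to -1.9), as was the plasma share (2.4 to 3.33). The plasmacytoid dendritic ratio was 1.10 with 2000 UMIs and 1000 genes and 0.85 without Klk1-led clusters, an alternative chosen after seeing the data, and neither passed. Because Klk1 is far higher in NZB cells of the class, leaving out clusters led by it favored a lower ratio. By marker score the plasma ratio turned to -0.68, and the cause was not tested. Mature B cells passed with 2000 UMIs (-1.83), 500 UMIs and 250 genes (-1.97), parents alone (-1.87), TMM (-1.98), doublets kept (-1.72), marker score (-1.56), the replicate block (-2.05), and strain genes kept (-2.14). Conventional dendritic cells passed with parents alone (-2.36) and the block (-2.45), basophil and mast cells with doublets kept (0.92), and megakaryocytes with parents alone (0.99) and resolution 1 (1.86). Without a mouse the ratios ran from 0.19 to 0.95 for NK cells, 0.59 to 0.92 for basophil and mast cells, -3.0 to -1.98 for conventional dendritic cells, and -2.54 to -1.45 for mature B cells.

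Without a mouse, whole-marrow calls were 818 to 1126 higher and 790 to 1141 lower, class calls 2121 to 2894 and 2097 to 2893, strain-wide genes 16 to 24 and 20 to 23, and standardized calls 584 to 910 and 772 to 1248. Class dependence gave 95 to 204 larger and 41 to 62 smaller differences for erythroid cells, 145 to 325 and 41 to 96 for monocytes, and 26 to 165 and 10 to 80 for pro-B and pre-B cells. DESeq2 gave 1889 lower class calls. Strain-wide genes numbered 92 and 96 at 4 classes and 10 and 14 at 8. Standardized lower genes were 703 at 20 CPM, and equal class weights gave 392 and 506. Class dependence by edgeR gave 242 smaller for erythroid cells, 347 and 349 for monocytes, and 66 and 117 for pro-B and pre-B cells. A pseudocount of 5 gave 145 and 65 smaller for erythroid and pro-B and pre-B cells, 5 CPM gave 284 larger for monocytes, and parents alone 40 and 17 for pro-B and pre-B cells. One-parent genes were 5 and 1 at 0 UMIs and 4 and 0 at 20 CPM, with 4 for NZW at 10 UMIs and 9 at 2 CPM.

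With the replicate block, whole-marrow calls were 1519 higher and 1596 lower. Beyond the blocked values given here and beside the results, the pairing changed no other call of a class share. With these cell classes gene tests could not be fitted for conventional dendritic and plasma cells, nor for megakaryocytes with doublets kept or at resolution 1. With free RNA subtracted, 1 macrophage gene rather than 3 was lower in macrophage-like cells. Class gene tests needed at least 10 cells a mouse, and a missing call in a small class does not show that the strains were alike.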
